A study of Mus musculus with 12 samples.

Results

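Islets taken 5 weeks after inactivation of Taf4 in adult beta cells were compared with wild-type islets across the whole gene annotation, using the 2 libraries at 5 weeks (replicates 2 and 3) and the 3 wild-type libraries that have a raw count column, 5 of the 11 libraries in the count table. All mice were C57/Bl6, carried Ins1::Cre-ERT2, a Cre recombinase that tamoxifen activates and the Ins1 promoter drives, and were injected with tamoxifen as adults; the mutants had both Taf4 alleles floxed and the wild-type controls (WT) were Taf4 +/+. Each library was made from purified islets, pooled from 2 mice per library, whose RNA was linearly amplified before sequencing. The time at which WT islets were taken is not in the labels, and replicate 1 at 5 weeks was not analysed here. Cre acts in cells that use the Ins1 promoter, so the other islet cells of the mutants are not targeted. The p-values measure the spread between pools only, estimated over all 11 libraries, which include mutants at 1 and 3 weeks.

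TFIID is the general transcription factor that recognises core promoters and places RNA polymerase II at the start of protein-coding genes; Taf4 is one of its core subunits and pairs with Taf12. Beta cells are the insulin-secreting cells of the islet and lie among glucagon-secreting alpha, somatostatin-secreting delta and pancreatic polypeptide cells, with capillaries, pericytes and resident macrophages. Purified islets can carry along fragments of the surrounding exocrine pancreas, whose acinar cells make digestive enzymes at very high levels.

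The libraries held 13865518 to 21581153 counts, and 20180 of 34820 annotated genes had enough reads to be tested. Levels are given in CPM, the count of a gene relative to its library's total after that total was scaled by edgeR's trimmed mean of M values (TMM). Fold changes and adjusted p come from edgeR's quasi-likelihood F test with Benjamini-Hochberg adjustment over all genes tested, and ± marks the standard error (SE) of a log2 fold change. A gene rose or fell where its adjusted p was under 0.05, and was called higher or lower where, in addition, it changed by more than 1 on the log2 scale.

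The share of acinar RNA differed between the groups and is the first thing the libraries showed. A list of 35 acinar enzymes and granule proteins took 55.1%, 30.8% and 50.3% of all counts in the 3 WT libraries and 0.238% and 0.0376% in the 2 libraries at 5 weeks. The ranges did not overlap, and even WT replicate 2, the WT library with the least acinar RNA, lay far above both mutant libraries. The same list took 3.68% to 4.96% in the 3 mutant libraries at 3 weeks. The TMM factors, which offset such differences in composition, were 0.61 to 1.02 in WT and 1.43 and 1.58 at 5 weeks. Without these factors the median log2 fold change of all tested genes moved from -0.03 to 0.95, so that every direction below is relative to the bulk of the transcriptome under TMM. In bulk RNA, fewer cells of a type and less RNA per cell cannot be told apart, and with so clear a split of the groups the acinar share and the genotype cannot be told apart either.

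**Figure D1:**
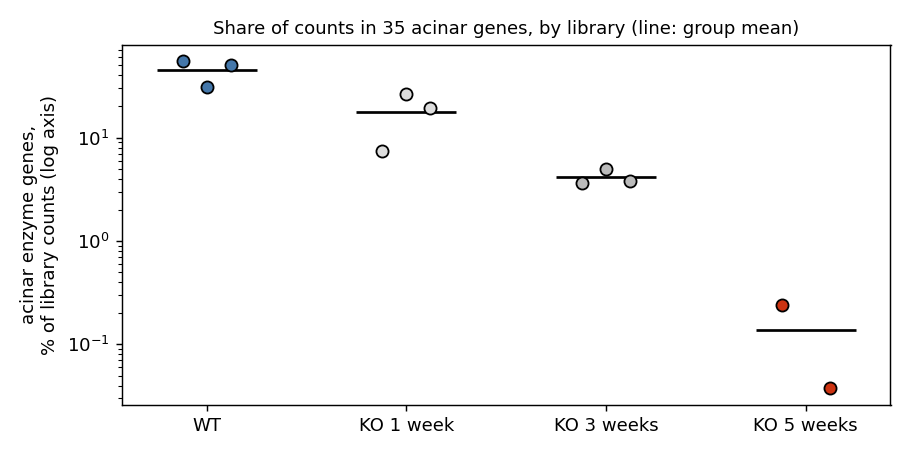
Share of all counts that fell in 35 acinar enzyme and granule protein genes, in percent on a log axis, with 1 point per library and a line at the group mean. The WT libraries lie between 30.8% and 55.1%, those at 1 week between 7.36% and 26.1%, those at 3 weeks between 3.68% and 4.96% and the libraries at 5 weeks at 0.238% and 0.0376%.

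A second difference between the groups lay in sex-linked genes. Xist, the RNA that coats the inactive X chromosome, had 389, 122 and 330 counts in WT and 44338 and 69939 at 5 weeks. Ddx3y, Eif2s3y, Kdm5d and Uty, which lie on the Y chromosome, had 1599, 2254 and 1635 counts together in WT and 0 and 1 at 5 weeks. The WT pools thus held RNA from males and the mutant pools lacked it, and sex and genotype cannot be told apart in these 5 libraries. Of 793 tested genes on the X chromosome, 4.04% were called higher and 6.56% lower.

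Across the genome, 860 of 20180 tested genes were called higher at 5 weeks (4.26%) and 2270 were called lower (11.2%). By adjusted p alone, 3027 genes rose (15%) and 2836 fell (14.1%). Counts of list members given below are to be read beside these shares of all tested genes. In 5300 genes both libraries at 5 weeks lay above all WT libraries (26.3%), and in 5644 both lay below (28%). The libraries of a group resembled each other more than those of the other group, with correlations of log2 CPM across genes of 0.97 among WT libraries, 0.96 between the libraries at 5 weeks and 0.89 to 0.92 between the groups. WT replicate 2, the library with the least acinar RNA, was the lowest of the 3 WT libraries for 1032 of the 2270 genes called lower (45.5%). It was the lowest for 33.4% of the genes called higher and for 33.6% of all tested genes. WT replicate 1, which had the most acinar RNA, was the lowest for 24%, 48.3% and 32.2% of these. The genes called lower include the acinar and Reg genes themselves, and the part of acinar RNA in the rest was not tested.

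When the log2 acinar share of each library was added to the model as a term, 89 genes were called higher and 66 lower, of which 31 and 52 were also called in the comparison without it. The 31 included Ddit3, Hmox1, Id2 and Xist, and the 52 included Slc2a2, Ins1, Cox6a2, Ucn3 and Nkx6-1. Slc2a2 stood at -6.26 without the term and -8.31 with it, and Ddit3 at 4.52 and 4.93. These 9 genes were picked from the 83 after their values were seen. Of 193 named genes that passed the test without the term, 16 still passed it with the term in the same direction. Trib3, Ppp1r15a, Chac1, Gars, Aars, Nqo1, Srxn1, Gclc, Cyp1a1, Cdkn1a and Trpm5, described below, were not among the 83. Among genes named further on, the following lie outside the rule for named genes and were also chosen after their values were seen: Abcc8, Asns, Atf3, Atf4, Atf5, Bbc3, Cebpb, Cebpg, Cd68, Cpe, Derl1, Epcam, Ero1lb, Fgf21, G6pc2, Gipr, Gsta4, Iars, Kcnj11, Kcnk16, Nupr1, Pcsk1, Pcsk2, Phgdh, Pmaip1, Prlr, Psat1, Slc30a8 and Tars.

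Genes with low counts had lower fold changes than abundant ones. The tested genes were split into 4 bins of 5045 genes. In the bin with the lowest mean level (up to 1.11 CPM) the median log2 fold change was -0.68, and in the bin with the highest level (from 23.7 CPM) it was 0.24. Transcript length went with a smaller shift, from a median of 0.11 in the bin of shortest transcripts to -0.14 in the bin of longest, with 14.5% of the longest and 8.70% of the shortest called lower. These are medians over genes with no test.

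**Figure D2:**
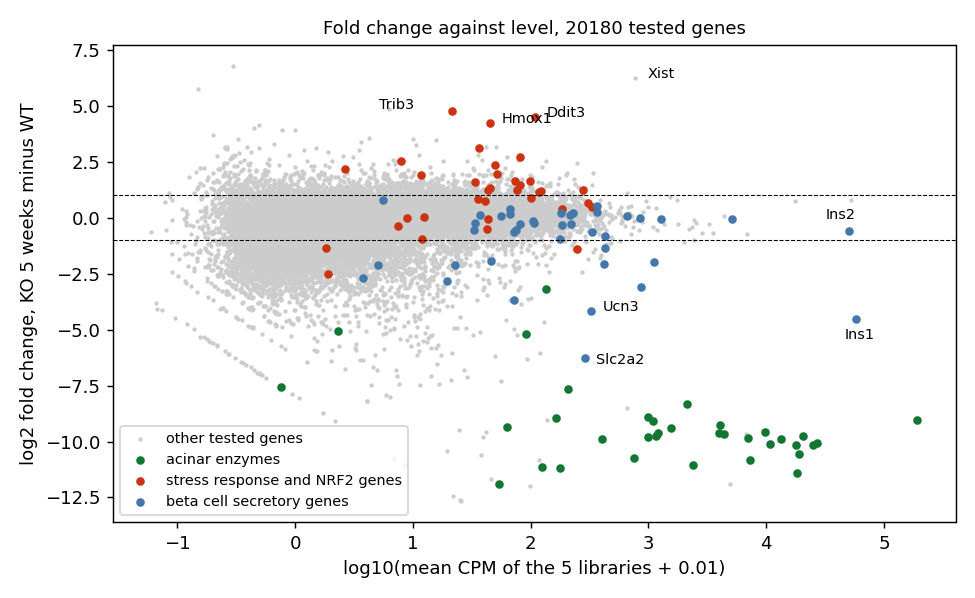
Log2 fold change at 5 weeks against WT for 20180 tested genes, against the log10 of the mean CPM of the 5 libraries plus 0.01, with acinar, beta cell secretory, and stress response and NRF2 genes coloured and dashed lines at a log2 fold change of 1 and -1. The acinar genes form a separate group at a median of -9.74, Slc2a2, Ins1 and Ucn3 lie well below the other beta cell genes, and Trib3, Ddit3 and Hmox1 lie at 4.75, 4.52 and 4.23.

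The targeted gene, listed as Taf4a (chr2:179646851-179711351, mm9, minus strand), had 29.7, 23.0 and 29.8 CPM in WT and 21.7 and 27.5 CPM at 5 weeks. The ranges overlapped, and the log2 fold change was -0.16 ± 0.18 (adjusted p = 0.542; without library scaling 0.87, adjusted p = 0.00526). Counts of a whole gene add up exons inside and outside a floxed stretch and come from all islet cells, so this value does not check the deletion. Its close relative Taf4b, which can take its place in TFIID, had 7.75, 5.90 and 3.89 CPM in WT and 11.1 and 12.7 CPM at 5 weeks, all above WT. Taf4b rose by 1.03 ± 0.29 on the log2 scale (adjusted p = 0.0113), a call that was lost without replicate 3 at 5 weeks (0.93, adjusted p = 0.0639).

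Of 18 genes of TFIID and its relatives tested, 7 were called higher and none lower, with a median log2 fold change of 0.76 beside -0.03 for all tested genes, and 12 rose by adjusted p alone (4 called higher when the libraries were scaled to endocrine genes). Taf12, the partner of Taf4, had 11.8, 12.8 and 12.9 CPM in WT and 25.9 and 25.3 CPM at 5 weeks, a rise of 1.03 ± 0.17. Taf5, the scaffold subunit with WD40 repeats, rose by 1.57 ± 0.18 (adjusted p = 3.99e-06), and Taf6, a histone-fold subunit, by 1.17 ± 0.15. Taf15, which binds RNA, and Tbpl1, a paralog of the TATA-binding protein, rose by 1.23 ± 0.16 and 1.29 ± 0.18. Both were also higher than at 3 weeks, by 1.33 and 1.05 on the log2 scale. By adjusted p alone, 15% of all tested genes rose and 14.1% fell. Among the other parts of the machinery, 8 of 20 other general transcription factors, 7 of 12 RNA polymerase II subunits and 8 of 32 Mediator subunits rose by this measure and none fell. Most of these changes were small, since only 1 general factor (Gtf2f2, at 1.18 ± 0.27), 2 Mediator subunits (Med19 and Med28) and no polymerase subunit passed the fold threshold. Gtf2f2 and Med28 did not pass the test without replicate 2 at 5 weeks (adjusted p = 0.0743 and 0.0712), and 1 to 5 polymerase subunits passed the fold threshold when any 1 of the 5 libraries was left out. The largest polymerase subunit, Polr2a, had 121, 129 and 119 CPM in WT and 188 and 305 CPM at 5 weeks.

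Of 40 genes of the beta cell secretory programme, 13 were called lower and none higher, with a median of -0.42 that turned to 0.55 without library scaling. The loss was uneven. Slc2a2 (chr3:28596825-28627278, mm9), which encodes the glucose transporter GLUT2, had 390, 573 and 464 CPM in WT and 7.99 and 4.54 CPM at 5 weeks, and fell by 6.26 ± 0.50 on the log2 scale (adjusted p = 6.89e-08). Ucn3, a peptide released with insulin and a marker of mature beta cells, had 435, 581 and 538 CPM in WT and 36.0 and 22.2 CPM at 5 weeks, and fell by 4.16 ± 0.31. Trpm5, a calcium-activated cation channel, went from 114, 124 and 105 CPM to 11.04 and 7.004 CPM, and fell by 3.67 ± 0.25. In all 3 genes both mutant libraries were far below every WT library.

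Slc2a2 and Trpm5 had already reached these levels at 3 weeks, at 9.14 to 11.7 CPM and 5.95 to 8.34 CPM, and neither differed between 5 and 3 weeks by the test (adjusted p = 0.275 and 0.300). Ucn3 had 81.5 to 96.1 CPM at 3 weeks and was lower again at 5 weeks, by 1.57 on the log2 scale (adjusted p = 0.000775). Further genes of the list that were called lower were G6pc2, the islet glucose-6-phosphatase (-3.09), the incretin receptor Gipr (-2.81), the prolactin receptor Prlr (-2.08), the ER oxidase Ero1lb (-1.96), the zinc transporter of insulin granules Slc30a8 (-1.36) and the channel Kcnk16 (-1.93). Other parts of the programme stayed near WT levels: the ATP-sensitive potassium channel genes Kcnj11 and Abcc8 stood at 0.19 and 0.09, the prohormone-processing genes Pcsk2 and Cpe at -0.06 and -0.01, and the amyloid peptide gene Iapp at -0.07, none past the test. Pcsk1, the first convertase of proinsulin, fell by 0.95 ± 0.20 (adjusted p = 0.00132).

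Mice have 2 insulin genes, and they parted. Ins1 (chr19:52338813-52339946, mm9) had 78838, 97504 and 107287 CPM in WT and 3631 and 4595 CPM at 5 weeks, and fell by 4.52 ± 0.46 on the log2 scale (adjusted p = 8.97e-07). Ins2 (on chromosome 7) had 52287, 52568 and 69629 CPM in WT and 56773 and 21435 CPM at 5 weeks, so that one mutant library lay inside the WT range and the other below it. Its log2 fold change was -0.57 ± 0.42 (adjusted p = 0.319), and without replicate 2 at 5 weeks -1.43 (adjusted p = 0.00265). Counts of Ins2 divided by those of Ins1 came to 0.663, 0.539 and 0.649 in WT and 15.6 and 4.67 at 5 weeks, a split with no overlap, beside 8.49 to 12.8 at 3 weeks. Both genes were lower at 5 than at 3 weeks, Ins1 by 1.56 (adjusted p = 0.0132) and Ins2 by 1.76 (adjusted p = 0.0123) on the log2 scale, since Ins2 had stood at 114317 to 147738 CPM at 3 weeks. The coding sequences are close relatives and only uniquely placed reads were counted, so reads from stretches they share are missing from both.

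Ins1 is also the gene whose promoter drives Cre in every animal. The stretches from 60 to 11 bases before the RefSeq start (GRCm38.p6) of the beta cell genes that fell most are shown because TFIID is the factor that meets DNA in this window. Positions count back from the base before the start, and capitals would mark TATAAA, the strict form of the TATA box, which none of these stretches holds.
Slc2a2 (chr3:28697843-28697892, plus strand): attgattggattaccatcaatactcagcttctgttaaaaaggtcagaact
Ucn3 (chr13:3945360-3945409, minus strand): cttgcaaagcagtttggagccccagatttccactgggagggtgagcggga
Trpm5 (chr7:143094653-143094702, minus strand): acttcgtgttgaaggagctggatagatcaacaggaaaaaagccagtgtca
Ins1 (chr19:52264237-52264286, plus strand): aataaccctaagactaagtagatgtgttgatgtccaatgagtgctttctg
Of the 38 promoter windows that RefSeq gave for 26 genes of the beta cell list, 0 held TATAAA from 45 to 15 bases before the start on the gene's strand. The share was 1.74% of the 15959 windows of tested genes, 2.01% of the 746 windows of genes called higher, 3.69% of the 1842 windows of genes called lower and 2.14% of all 32851 windows in the RefSeq table. On the opposite strand it was 0.402% of windows of genes called higher, 0.651% for genes called lower and 0.501% for all tested genes. These letters in a window are a description of sequence and not a measured binding site. The windows follow the annotated start, so TATAAA before another start would be missed, and where transcription starts in islets was not measured.

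**Figure D3:**
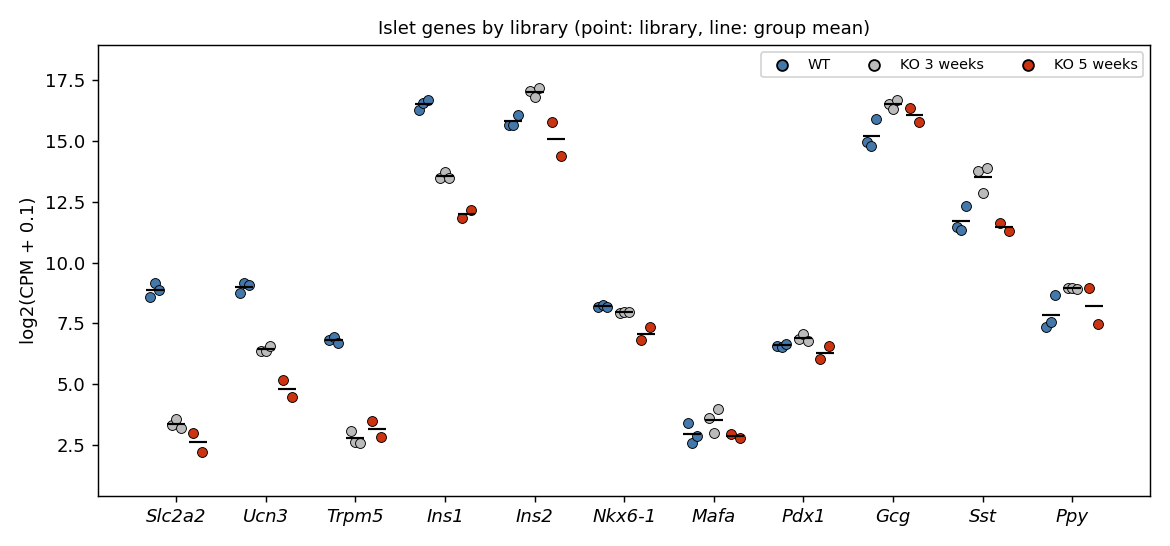
Levels of 11 islet genes as log2(CPM + 0.1), with 1 point per library for WT (blue), 3 weeks (grey) and 5 weeks (red) and a line at each group mean. Slc2a2, Ucn3, Trpm5 and Ins1 sit far below WT at both times, while Ins2 and Sst are higher at 3 weeks than at 5 weeks, by 1.76 and 2.08 on the log2 scale.

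Of 23 transcription factors of beta cells tested, 2 were called higher and 2 lower, 4 rose and 6 fell by adjusted p alone, with a median of -0.12 (0.88 without library scaling). Among all tested genes 15% rose and 14.1% fell by adjusted p alone. Nkx6-1, which maintains the beta cell programme, had 289, 307 and 288 CPM in WT and 112 and 166 CPM at 5 weeks, and fell by 1.09 ± 0.18 (adjusted p = 0.000252), and lay at 244 to 253 CPM at 3 weeks. Mlxipl, the glucose-sensing factor ChREBP, fell by 1.41 ± 0.21. Both falls passed the test with TMM but not without library scaling, where the log2 fold changes were -0.10 and -0.42. Insm1, a zinc-finger factor of endocrine cells, rose by 1.32 ± 0.22, and the circadian repressor Bhlhe41 by 1.06 ± 0.17. Pdx1, the central regulator of insulin transcription, had 95.8, 93.5 and 101 CPM in WT and 64.9 and 96.0 CPM at 5 weeks (-0.27 ± 0.18, adjusted p = 0.289), and Mafa had 10.5, 5.97 and 7.33 CPM in WT and 7.64 and 6.86 CPM at 5 weeks (-0.12 ± 0.31). Without replicate 3 at 5 weeks the value of Pdx1 was -0.57 (adjusted p = 0.0469), and without library scaling Pdx1 and Mafa stood above WT at 0.74 and 0.91.

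The alpha cell list took a larger share of the mutant libraries, nearly all of it through Gcg. The hormone genes Gcg, Sst and Ppy did not pass the test after scaling. Of 3 genes tested in the list of pancreatic polypeptide and epsilon cells, 1 rose by adjusted p alone and none was called. A share of all counts rises when acinar RNA leaves the total, and 12 endocrine genes used for one of the scalings went from 0.217% to 0.416% of counts. The 12 genes of the alpha cell list took 2.26%, 3.18% and 4.15% of counts in WT (mean 3.20% ± 0.946, SD, n = 3) and 12.7% and 9.28% at 5 weeks. Gcg alone took on average 2.92% in WT and 10.5% at 5 weeks. Among the 11 list members tested, 1 was called higher and 1 lower. Gcg, the glucagon gene, had 32053, 28124 and 62336 CPM in WT and 85314 and 56013 CPM at 5 weeks, so that one mutant library fell inside the WT range after scaling. Its log2 fold change of 0.79 ± 0.40 did not pass the test (adjusted p = 0.144), and passed it without WT replicate 3 (1.25, adjusted p = 0.0328) and without replicate 3 at 5 weeks (1.07, adjusted p = 0.0317). The alpha cell amino acid transporter Slc38a5 fell by 1.26 ± 0.28 (-0.16 without library scaling, adjusted p = 0.656). In the delta cell list, Ghsr, the ghrelin receptor, rose by 1.41 ± 0.30 and the leptin receptor Lepr fell by 3.04 ± 0.40. Sst, the somatostatin gene, had 2853, 2604 and 5159 CPM in WT, 3219 and 2533 CPM at 5 weeks and 7497 to 15196 CPM at 3 weeks, so that it stood near WT at 5 weeks (-0.30 ± 0.38) and below its level at 3 weeks (-2.08, adjusted p = 0.0023). Ppy, the pancreatic polypeptide gene, had 492 and 177 CPM in the mutant libraries beside 164, 190 and 403 CPM in WT (0.40 ± 0.35, adjusted p = 0.412). It passed the test without WT replicate 3 (0.94, adjusted p = 0.0433) and without replicate 3 at 5 weeks (0.97, adjusted p = 0.0431), and turned sign without replicate 2 at 5 weeks (-0.50, adjusted p = 0.353).

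No gene of a list of endocrine progenitor and dedifferentiation genes passed the test upwards. Of 13 tested, 6 were called lower and none higher, with a median of -1.05 (-0.10 without library scaling, -0.65 without replicate 2 at 5 weeks). Neurog3, the factor that starts endocrine development, had 2.71, 1.85 and 3.08 CPM in WT and 4.63 and 3.02 CPM at 5 weeks (0.59 ± 0.33, adjusted p = 0.185). Aldh1a3, an aldehyde dehydrogenase found in failing beta cells, went from 3.18, 5.26 and 12.6 CPM to 1.39 and 0.85 CPM, and fell by 2.65 ± 0.59. Sox9, a factor of ductal and progenitor cells, went from 27.9, 14.1 and 15.8 CPM to 1.03 and 1.52 CPM. Of 25 so-called disallowed genes, which beta cells keep off, 17 were called lower and none higher, with a median of -1.99. They included Ly6a, a surface antigen of stromal cells (-4.05), the microsomal glutathione transferase Mgst1 (-3.83), the transglutaminase Tgm2 (-3.42) and the lactate dehydrogenase Ldha (-2.70 ± 0.43, from 19.2, 10.2 and 22.6 CPM to 3.28 and 2.05 CPM). In WT, Ldha and Sox9 were lowest in replicate 2, the library with the least acinar RNA, and the part of other cells in these falls was not tested.

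Among the largest rises were those of genes of the integrated stress response, the pathway in which kinases that sense ER stress, amino acid shortage or other damage phosphorylate eIF2α, slow translation and induce the factor ATF4 and, through it, CHOP. Ddit3 (chr10:126727830-126733344, mm9), which encodes CHOP, had 10.5, 12.4 and 10.3 CPM in WT and 290 and 219 CPM at 5 weeks, a rise of 4.52 ± 0.17 on the log2 scale (adjusted p = 5.62e-12). Trib3, a pseudokinase induced by ATF4 and CHOP, went from 1.12, 2.42 and 1.99 CPM to 45.4 and 55.9 CPM (4.75 ± 0.34). Ppp1r15a, the phosphatase subunit GADD34 that reverses eIF2α phosphorylation, went from 7.94, 9.39 and 8.95 CPM to 67.5 and 87.1 CPM (3.14 ± 0.18). In each of the 3 genes the mutant libraries stood several-fold above the highest WT library.

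The glutathione-degrading enzyme Chac1 went from 18.3, 21.2 and 36.0 CPM to 161 and 167 CPM, a rise of 2.70 ± 0.31. Of the 20 genes of the list, 10 were called higher and 2 lower, with a median of 0.99, and the 10 included the regulators Atf4 (1.26), Atf5 (1.22), Cebpb (2.16) and Cebpg (1.17). The 2 called lower were Fgf21 and Nupr1, both of which acinar cells also express (1 was left without WT replicate 3 or without replicate 2 at 5 weeks), and the amino acid synthesis genes Asns, Psat1 and Phgdh did not rise (0.40, -0.04 and -0.94). The part of acinar RNA in the falls of Fgf21 and Nupr1 was not tested. Between 5 and 3 weeks, both mutant, 15 of the 20 were higher and none lower, beside 2.2% higher and 4.01% lower of all tested genes. At 3 weeks Ddit3 lay at 21.0 to 21.7 CPM, Trib3 at 1.36 to 2.80 CPM, Ppp1r15a at 13.0 to 16.3 CPM and Chac1 at 22.4 to 23.4 CPM. Ddit3 was thus 3.57 and Trib3 4.48 higher on the log2 scale than at 3 weeks (adjusted p = 1.36e-10 and 4.99e-08), and the acinar share of 3.68% to 4.96% at 3 weeks was above that at 5 weeks here too.

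Aminoacyl-tRNA synthetases, which charge tRNAs with amino acids and several of which are ATF4 targets, moved the same way. Of 20 tested, 8 were called higher and none lower (median 0.80), and 14 rose by adjusted p alone. Gars, for glycine, went from 76.5, 73.6 and 94.4 CPM to 204 and 278 CPM (1.57 ± 0.16, adjusted p = 9.22e-07), and Aars, for alanine, from 63.8, 67.7 and 81.9 CPM to 184 and 229 CPM (1.54 ± 0.17). Yars and Eprs rose by 1.51 ± 0.16 and 1.45 ± 0.16. ATF4 binds, with partners of the C/EBP family, elements of the form TGATGNAAN on either strand. RefSeq promoter windows of 300 bases, from 250 before to 50 after the start, were found for 20 genes of the stress list and 12 of the synthetases. At least 1 match lay in the windows of 6 and 5 of them, beside 2.61% of the windows of all tested genes, 3.95% of all windows in the table and 2.55% of the windows of genes called higher. Of the 11 genes with a match, Chac1, Trib3, Yars, Gars, Aars and Iars were called higher, Fgf21 and Nupr1 lower and Atf3, Asns and Tars neither, and the window of Ddit3 held none. The stretches below show the match upstream of 3 of the genes that rose, with its letters in capitals, here read on the opposite strand (GRCm38.p6, RefSeq).
Chac1 (chr2:119351032-119351071, plus strand, 210 to 171 bases before the start): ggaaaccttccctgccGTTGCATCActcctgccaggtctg
Aars (chr8:111033712-111033751, plus strand, 130 to 91 bases before the start): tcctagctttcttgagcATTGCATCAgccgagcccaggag
Gars (chr6:55037956-55037995, plus strand, 45 to 6 bases before the start): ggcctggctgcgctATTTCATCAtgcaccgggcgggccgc
The match begins 194, 113 and 31 bases before the start, so that it keeps no fixed distance.

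The targets of NRF2, the factor that turns on antioxidant and detoxifying enzymes under oxidative stress, formed the list with the highest median of the 48 described, 1.48, with 10 of 15 called higher and 1 lower. Hmox1 (chr8:77617490-77624495, mm9), the haem oxygenase, had 4.02, 6.90 and 5.61 CPM in WT and 120 and 89.2 CPM at 5 weeks, a rise of 4.23 ± 0.29 (adjusted p = 1.39e-08), and 4.32 to 6.00 CPM at 3 weeks. Nqo1, a quinone reductase, went from 2.80, 2.49 and 2.80 CPM to 21.3 and 9.85 CPM (2.53 ± 0.34), and Srxn1, the sulfiredoxin, from 17.2, 18.8 and 19.4 CPM to 102 and 89.6 CPM (2.37 ± 0.15). Gclc, the rate-limiting subunit of glutathione synthesis, rose by 1.97 ± 0.16, while Gsta4 fell by 1.33 ± 0.47 and was no longer called when any 1 of the 5 libraries was left out. Between 5 and 3 weeks 11 of the 15 were higher and none lower. Cyp1a1, a cytochrome P450 induced through the aryl hydrocarbon receptor, was near absent in WT (0.187, 0.142 and 1.27 CPM) and at 3 weeks (0 to 0.127 CPM) and had 13.7 and 16.3 CPM at 5 weeks, a rise of 4.85 ± 0.63 that was the largest by the rule for named genes, which leaves out sex-linked genes. The stretches before the RefSeq starts of Cyp1a1 and Nqo1 hold TATAAA, marked in capitals (GRCm38.p6, RefSeq).
Cyp1a1 (chr9:57697543-57697602, plus strand, 70 to 11 bases before the start): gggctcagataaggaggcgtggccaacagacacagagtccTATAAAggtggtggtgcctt
Nqo1 (chr8:107403216-107403265, minus strand, 60 to 11 bases before the start): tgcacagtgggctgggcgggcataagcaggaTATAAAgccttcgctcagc
The letters begin 30 and 29 bases before the start. Across the 16 windows of 11 NRF2 list genes that RefSeq gave, 3 held TATAAA there. The share was 2.01% of the windows of genes called higher and 3.69% of those called lower, so the printed stretches do not stand for either group.

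**Figure D4:**
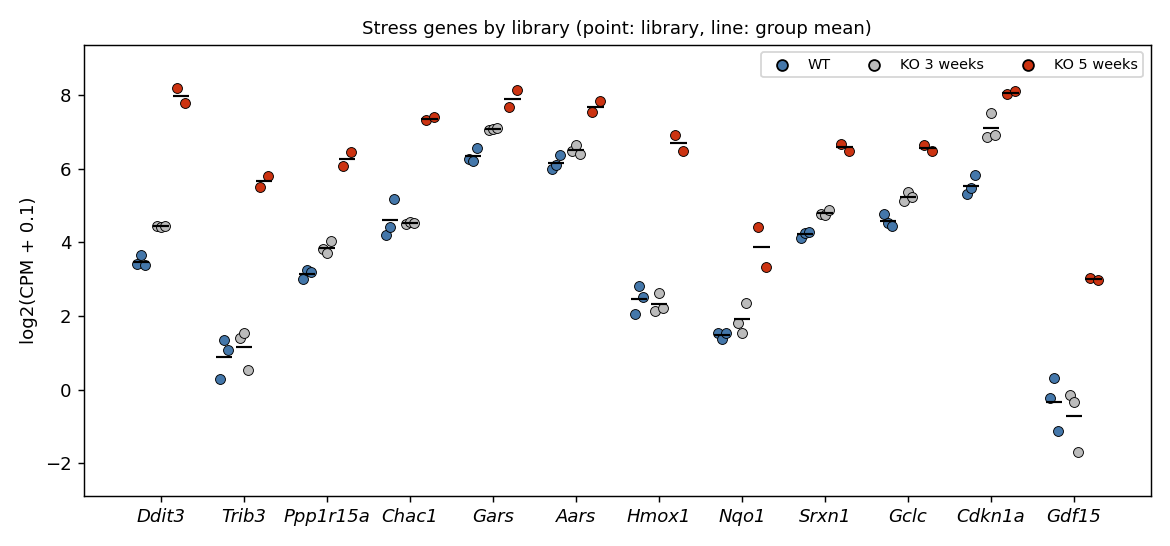
Levels of 12 stress genes as log2(CPM + 0.1), with 1 point per library for WT (blue), 3 weeks (grey) and 5 weeks (red) and a line at each group mean. Trib3, Chac1, Hmox1 and Gdf15 are near WT at 3 weeks and above every WT library at 5 weeks, whereas Cdkn1a already lies at 116 to 183 CPM at 3 weeks and 259 and 275 CPM at 5 weeks.

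The p53 target list was mixed, with 5 of 14 called higher (3 without WT replicate 2) and 2 lower (median 0.87). Cdkn1a, the cell cycle inhibitor p21, had 39.8, 44.2 and 56.1 CPM in WT, 116 to 183 CPM at 3 weeks and 259 and 275 CPM at 5 weeks (2.52 ± 0.20, adjusted p = 8.3e-08). Gdf15, a secreted stress cytokine that ATF4 and CHOP also induce, went from 0.747, 1.14 and 0.362 CPM to 8.07 and 7.80 CPM, while the apoptosis genes Bbc3 and Pmaip1 did not pass the test (0.83 and -1.05). Further large rises were those of Angptl6 (3.51), Id2 (3.46), the gluconeogenic enzyme Fbp1 (3.23), Cyb5r1 (3.18), the sterol carrier Stard5 (3.15), Id3 (2.81) and the granule neuropeptide Vgf (2.79). Id2 and Id3, inhibitors of helix-loop-helix factors, had 47.2 and 22.01 CPM and 28.2 and 18.5 CPM at 5 weeks, beside at most 4.30 and 5.16 CPM in WT.

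The genes that fold and remove ER proteins moved in both directions. Of 28 tested, 2 were called higher and 5 lower, and by adjusted p alone 9 rose and 9 fell (median -0.25, and 0.76 without library scaling). Hspa5, the main ER chaperone BiP, had 1449, 1136 and 1433 CPM in WT, 1010 to 1107 CPM at 3 weeks and 2612 and 2058 CPM at 5 weeks, a rise of 0.80 ± 0.20. Ern1, which encodes the ER stress sensor IRE1α, rose by 1.15 ± 0.17, and Derl1, a channel component of ER-associated degradation, by 1.00 ± 0.17. Derl3 fell by 2.92 ± 0.43, the proline isomerase Ppib by 1.91 ± 0.27 and Sdf2l1 by 1.16 ± 0.19 (-0.14 without library scaling, adjusted p = 0.712). Derl3 had 88.0, 41.5 and 74.5 CPM in WT, lowest in the library with the least acinar RNA, and acinar cells are rich in these secretory chaperones. The part of acinar RNA in the falls was not tested, beyond the term for the acinar share, with which Derl3 stood at 1.42 (adjusted p = 0.694).

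Proteasome genes rose by small steps, and nuclear genes of the mitochondrion did so in part. Among all tested genes 15% rose and 14.1% fell by adjusted p alone. Of 31 proteasome subunits, 29 rose by adjusted p alone and none fell, with a median of 0.80, although only 6 passed the fold threshold. That count was 3 without WT replicate 1, 14 without WT replicate 3, and 2 and 16 without replicates 2 and 3 at 5 weeks. Psmc5, an ATPase of the regulatory particle, went from 44.4, 44.7 and 57.6 CPM to 118 and 115 CPM (1.25 ± 0.15). Among 75 mitochondrial ribosomal proteins 34 rose and none fell (median 0.56), among 77 nuclear-encoded respiratory chain subunits 32 rose and 2 fell (median 0.46), and among 81 cytosolic ribosomal proteins 5 rose and none fell (median 0.26, and -0.21 without replicate 2 at 5 weeks). The exception in the respiratory chain was Cox6a2, an isoform of cytochrome oxidase subunit VIa otherwise known from muscle, which went from 67.2, 123 and 112 CPM to 5.03 and 3.46 CPM, and fell by 4.58 ± 0.28 (adjusted p = 4.58e-09). Mitochondrially encoded RNAs split the 2 mutant libraries: mt-Co1 had 7268 and 1838 CPM and mt-Rnr2 8166 and 1791 CPM, beside 3740 to 4519 CPM and 6655 to 9445 CPM in WT. Replicate 3 at 5 weeks was thus far lower than replicate 2 in these RNAs, and lay below WT without replicate 2 (-1.20 for mt-Co1, adjusted p = 0.00487), and the same library also had the lower Ins2, Gcg and Ppy. Lysosome and V-ATPase genes rose in 18 of 30 cases and fell in 2 (median 0.63), with Npc2, a cholesterol carrier of the lysosome, at 1.15 ± 0.16.

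**Figure D5:**
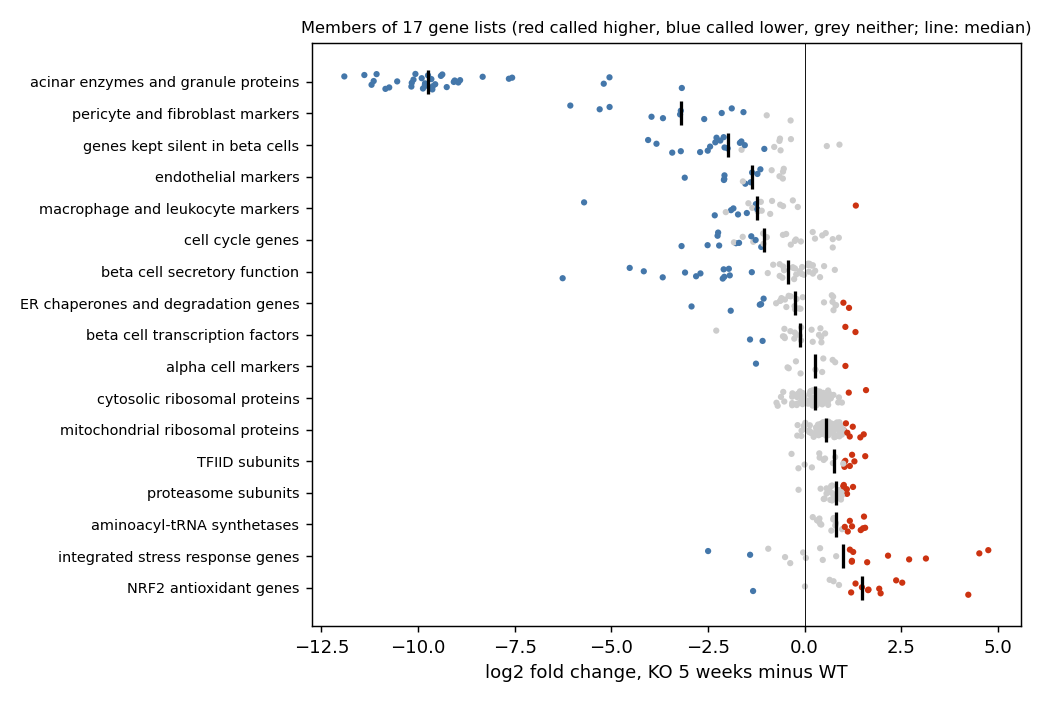
Log2 fold changes at 5 weeks against WT for the tested members of 17 gene lists, with 1 point per gene, red where called higher, blue where called lower and grey otherwise, and a line at each list's median. The medians run from -9.74 for acinar enzymes to 1.48 for NRF2 genes.

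Acinar genes were lower throughout: all 35 tested enzymes and granule proteins were called lower, with a median of -9.74 (-11.71 without replicate 2 and -8.90 without replicate 3 at 5 weeks), as were all 5 acinar transcription factors and all 6 tested Reg genes, which encode secreted lectins. Ctrb1, chymotrypsinogen B, had 412012, 129098 and 417699 CPM in WT and 1087 and 120 CPM at 5 weeks, and fell by 9.05 ± 1.08. Rnase1, the pancreatic ribonuclease, went from 37712, 15183 and 38214 CPM to 18.9 and 3.93 CPM. Ptf1a, the factor that defines acinar cells, had 235 counts over the 3 WT libraries and 1 over the 2 mutant libraries, a ratio of 390 at equal depth (exact 95% counting interval 69.3 to 15450). Reg1 went from 12917, 3675 and 17296 CPM to 25.5 and 2.55 CPM, and Reg3b from 33.3, 7.18 and 149 CPM to 0 and 0.0586 CPM. Reg3a and Reg3g fell by 6.34 ± 1.11 and 3.43 ± 0.55, and for both the levels at 3 weeks lay within the WT range or above it, at 2.84 to 3.90 CPM and 2.71 to 2.88 CPM. Several of these genes have near-identical copies, and reads that fit more than 1 copy were not counted.

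The 12 largest falls outside the acinar and Reg lists included Dmbt1, Hamp2, Igkc, Aqp12, Klk1b5, Sostdc1, Cckar, Amy2-ps1, Tmed11, Erp27 and Gal. For 11 of the 12 the lowest WT library was the one with the least acinar RNA, and the part of acinar RNA in these falls was not tested. Dmbt1, a secreted scavenger protein of epithelia, went from 9927, 3896 and 10748 CPM to 3.44 and 0.938 CPM. Cckar, the cholecystokinin receptor through which acinar cells are driven to secrete in the mouse, went from 350, 117 and 218 CPM to 0.673 and 0.234 CPM, and Erp27, a disulfide isomerase homologue, fell by 7.31 ± 0.61. Hamp2 had 2649 counts in WT and 1 at 5 weeks, a ratio of 4392 (interval 787.6 to 173500), and Amy2-ps1, an amylase pseudogene, 365 and 2. The exception was Igkc, an immunoglobulin light chain gene, with 8.97, 18.3 and 7.33 CPM in WT and no count at 5 weeks, at least 240 times lower when its total there is set at a floor of 3 counts.

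Markers of stromal and vascular cells fell as well. Of 13 pericyte and fibroblast markers 11 were called lower and none higher (median -3.20). Acta2, smooth muscle actin, went from 21.2, 27.9 and 56.6 CPM to 0.514 and 0.527 CPM (-6.06 ± 0.52), Dcn, the matrix proteoglycan decorin, fell by 5.30 ± 0.47, and the pericyte marker Rgs5 went from 78.6, 125 and 160 CPM to 15.5 and 10.6 CPM. At 3 weeks Rgs5 and the proteoglycan gene Lum still lay within the WT range, at 140 to 144 CPM and 3.60 to 4.30 CPM. Of 15 endothelial markers tested, 9 were called lower and none higher (median -1.36, and -0.35 without library scaling). Plvap, a protein of the diaphragms of fenestrated capillaries, went from 20.6, 23.9 and 41.1 CPM to 2.53 and 4.04 CPM, and Flt1, a VEGF receptor, from 65.6, 77.7 and 86.4 CPM to 14.05 and 21.9 CPM. Flt1 fell by 2.09 ± 0.22 against WT. In the separate pools at 3 weeks it had 90.8 to 97.3 CPM, and at 5 weeks it was 2.37 lower than there on the log2 scale (adjusted p = 8.54e-07). The part of acinar RNA in that difference was not tested. WT replicate 2, which had the least acinar RNA, was the lowest WT library for 5 of the 13 pericyte and 5 of the 15 endothelial markers, Dcn and Lum among them, and WT replicate 1, which had the most, for 7 and 10, including Acta2, Rgs5, Plvap and Flt1. As shares of all counts the endothelial list took 0.0268% ± 0.00717 in WT and 0.0207% ± 0.00659 at 5 weeks, and the pericyte list 0.0210% ± 0.00622 and 0.00562% ± 0.000256. Vegfa, which beta cells release to maintain islet capillaries, rose by 0.47 ± 0.16 (adjusted p = 0.0309). It did not pass the test without WT replicate 1, WT replicate 3 or replicate 3 at 5 weeks (0.34 to 0.51). Among 16 collagens, 8 of them lowest in WT replicate 2, 12 were called lower, Col1a2 and Col3a1 by 2.65 ± 0.38 and 2.59 ± 0.48.

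Leukocyte and immune genes pointed different ways. Among all tested genes 4.26% were called higher and 11.2% lower. Of 21 macrophage and leukocyte markers, 8 were called lower (5 without replicate 3 at 5 weeks) and 1 higher, the lysosomal glycoprotein gene Cd68, with a median of -1.22 (-0.24 without library scaling). Ptprc, the pan-leukocyte antigen CD45, went from 6.35, 13.4 and 7.24 CPM to 2.53 and 2.52 CPM, and the complement gene C1qa fell by 1.90 ± 0.43 (-0.87 without library scaling, adjusted p = 0.0598). Of 15 antigen presentation genes, 4 were called higher (2 without replicate 3 at 5 weeks) and 5 lower. The class II genes H2-Aa and H2-Ab1 fell by 1.62 ± 0.33 and 1.36 ± 0.28 (-0.68 and -0.37 without library scaling, adjusted p = 0.0585 and 0.33), whereas the class I gene H2-K1 had 167, 172 and 198 CPM in WT and 424 and 483 CPM at 5 weeks, a rise of 1.34 ± 0.15. Of 19 immediate early genes, which are switched on within minutes of a stimulus, 6 were called lower and 1 higher (median -0.49, and 0.49 without library scaling). Fos, Nr4a1 and Egr1 fell by 3.71 ± 0.31, 2.38 ± 0.27 and 2.19 ± 0.24. Of 29 cell cycle genes, 10 were called lower and none higher (median -1.06, and -0.05 without library scaling), with 6 lower without WT replicate 3 and 3 without replicate 2 at 5 weeks. Mki67, a marker of dividing cells, went from 8.13, 17.2 and 17.5 CPM to 2.73 and 2.32 CPM. Ductal markers divided: 7 of 17 were called lower, among them the mucin Muc1 (from 184, 58.6 and 137 CPM to 2.81 and 3.87 CPM), and 2 were called higher, Krt7 (from 59.1, 60.2 and 60.4 CPM to 155 and 171 CPM) and Epcam. The tight junction gene Cldn4 rose by 1.62 ± 0.25.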

How the data were processed

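The authors sequenced amplified islet RNA, trimmed reads with cutadapt 1.10, removed ribosomal reads with Bowtie2 2.2.8, aligned to mm9 with STAR 2.5.3a and counted uniquely placed reads per Ensembl gene with HTSeq; the deposited raw counts were used. Use of strand in counting was not given in the sources used here. The 11 normalised per-sample columns and the authors' own comparison sheets (fold changes and p-values) were not used. All 11 libraries were fitted with edgeR 4.0.16 in R 4.3.3 (TMM, filterByExpr, quasi-likelihood F test), and 5 weeks was contrasted with WT; DESeq2 1.42.0 was an alternative, as were other scalings and filters, leaving out each library, a replicate block and the log2 acinar share as a term. The test was checked on simulated counts with the same spread for every gene and no difference in acinar share between the groups. That check does not cover such a difference. Replicates are pools of mice.

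Genes were named by a rule: a panel of 19 islet, TFIID, Reg and Xist genes, the 12 largest changes in each direction at 10 CPM or more outside the acinar, Reg and sex-linked lists, up to 4 called members and the most abundant member of each of 48 gene lists, and the 5 most abundant genes of each group. The lists and the genes were chosen with earlier results of these data known. Promoter windows came from RefSeq (GRCm38.p6), matched by symbol for 12622 of the tested genes, and are separate from the mm9 gene coordinates. Counting intervals are exact at 95%, cover counting error only and used a floor of 3 counts. Some genes that the rule names are not reported here.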

Additional observations from a re-analysis of the deposited data

Results flagged for a closer look

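Of 42 genes reported from the fixed panel and among the 12 largest changes in each direction, 32 differed between mutant islets at 5 and at 3 weeks by edgeR's quasi-likelihood test of that difference (adjusted p under 0.05), 12 higher and 20 lower at 5 weeks. Because both groups are set against the same WT libraries, the difference between their effects is this contrast between the 2 mutant groups. Of all 20180 tested genes, 2.2% were higher and 4.01% lower at 5 weeks by this contrast with the fold threshold added. The largest changes were picked by values in the same libraries at 5 weeks, which made a difference in their direction likely. Acinar RNA took 3.68% to 4.96% of counts at 3 weeks and 0.238% and 0.0376% at 5 weeks, and its part in the differences was not tested. Groups of 2 and 3 libraries are too small for a test of single outlying libraries.

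The genes higher at 5 weeks were mostly stress genes and other genes with large rises over WT. On the log2 scale the difference from 3 weeks was 7.84 for Cyp1a1, which was near 0 CPM at 3 weeks, 4.48 for Trib3, 4.40 for Hmox1 and 3.57 for Ddit3. It was 2.59 for Cyb5r1, 2.58 for Id3, 2.49 for Stard5, 2.43 for Ppp1r15a, 2.42 for Angptl6, 2.25 for Id2, 2.08 for Fbp1 and 1.48 for Vgf.

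Among islet genes the difference was -0.57 for Pdx1 (adjusted p = 0.0484), -0.84 for Nkx6-1, -1.56 for Ins1, -1.57 for Ucn3, -1.76 for Ins2 and -2.08 for Sst. Of these, Ins2, Sst and Pdx1 had a higher mean at 3 weeks than in WT.

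The remaining 14 were Reg genes and genes among the largest falls outside the acinar and Reg lists, 1 of them an immunoglobulin gene: -3.55 for Erp27, -3.89 for Gal, -4.27 for Amy2-ps1, -4.27 for Tmed11, -4.30 for Reg3g, -4.96 for Cckar, -5.28 for Aqp12, -5.40 for Klk1b5, -5.55 for Reg3a, -5.98 for Sostdc1, -7.61 for Dmbt1, -8.10 for Hamp2, -9.02 for Igkc and -9.25 for Reg3b. Igkc had no count at 5 weeks and Hamp2 and Reg3b at most 2, so that their fitted values depend on the prior count.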

How the results depend on the processing

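The 860 genes called higher and 2270 called lower became 924 and 2560 with DESeq2, 863 and 2268 with DESeq2's size factors in edgeR, 814 and 2308 with acinar genes left out of the scaling, 710 and 2140 with a stricter filter on low counts and 901 and 2429 in a fit of the 5 libraries alone. Library scaling and a term for the acinar share moved them most: without scaling 8388 genes were called higher and 827 lower (91.0% of calls higher, beside 27.5% with TMM), and with factors from 12 endocrine genes 535 were higher and 2579 lower (17.2%). Without the filter 1334 genes were called higher (37.4%). With the acinar share as a term 89 were higher and 66 lower (57.4%). Leaving out 1 of the 5 libraries gave 765 to 1096 higher and 1580 to 2022 lower; where this left 1 library at 5 weeks, that library was assumed to vary like the other groups. Between 5 and 3 weeks, 443 genes higher and 809 lower became 1231 and 523 without scaling, 876 and 612 with endocrine scaling and 240 and 148 with the acinar share as a term. Replicate numbers did not pair the samples (correlations of deviations of -0.0778 and -0.0691 for numbers 2 and 3), and with the replicate number as a block 767 genes were higher and 1917 lower.

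Of 222 genes named by the rule, 10 reversed without scaling: Atp5b (0.88), Atrx (0.98), Ccnd2 (0.75), Cdh1 (0.67), Iapp (0.89), Mafa (0.91), Pdx1 (0.74), Rpl4 (0.82), Scg3 (0.77) and Taf4a (0.87). Without replicate 2 at 5 weeks mt-Co1 reversed (-1.20, and 0.78 without replicate 3). Of these, 193 passed the test in the comparison as reported, and with the acinar share as a term 16 of the 193 still passed it in the same direction, while 177 did not, 37 of them with a changed sign: Aqp12 (0.18), Bhlhe41 (-0.35), C1s (0.46), C3 (0.87), Cckbr (0.0746), Col1a2 (0.58), Ctrb1 (1.34), Dcn (0.25), Derl3 (1.42), Ern1 (-0.25), Erp27 (0.35), Gal (1.30), Gata4 (2.39), Hist1h3d (0.93), Hnrnpd (-0.28), Igkc (4.16), Insm1 (-1.61), Klk1b5 (0.95), Ldha (1.90), Mgst1 (2.65), mt-Nd3 (0.80), Nr5a2 (1.24), Oas2 (0.16), Pdgfra (0.47), Polr2a (-0.79), Ppib (0.15), Prss3 (2.91), Psmb10 (1.94), Rbpjl (0.48), Reg1 (1.48), Reg2 (0.23), Reg3g (0.96), S100a8 (10.29), Slc38a5 (0.56), Srsf9 (-0.81), Taf1 (-0.0558) and Vegfa (-0.46). The cause of these reversals was not tested. With 2 libraries at 5 weeks and genes under a few CPM, changes near the fold threshold are not detectable with certainty.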

Other observations

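Several gene groups not described above showed smaller or mixed changes, beside 4.26% called higher and 11.2% called lower of all tested genes. Among 17 glycolytic enzymes tested, 2 were called higher and 1 lower (median 0.56). Aldoa, the aldolase of muscle and many other tissues, went from 108, 102 and 122 CPM in WT to 233 and 259 CPM at 5 weeks, and Eno2, the neuronal enolase, rose by 1.47 ± 0.19 on the log2 scale, while the third was the fall of Ldha. Of 21 cholesterol synthesis genes 2 were called higher, Hsd17b7 and Sqle, the squalene epoxidase (from 80.7, 82.0 and 82.1 CPM to 175 and 190.0 CPM). In both mutant libraries Aldoa, Eno2 and Sqle lay above every WT library.

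Of 25 interferon response genes 7 were called lower (3 without replicate 2 at 5 weeks) and none higher, with a median of -0.38 that was 0.62 without library scaling. Of 12 acute phase and complement genes tested 2 were called higher and 4 lower, where the count of higher genes was 4 without WT replicate 3, 0 without WT replicate 1 and 1 without WT replicate 2 or either library at 5 weeks. The complement gene C3 fell from 25.3, 35.7 and 24.5 CPM to 2.22 and 2.23 CPM. Among 16 chemokine genes tested 1 was higher and 1 lower, the latter Cxcl12, a ligand made by stromal cells (-2.50 ± 0.31).

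Among chromatin genes calls were few, as among all tested genes, of which 4.26% were called higher and 11.2% lower. Of 36 chromatin remodellers 1 was called higher and none lower (median 0.09, and -0.07 with endocrine scaling), and of 22 histone lysine methyltransferases 1 was higher (median 0.18). Of 30 replication-dependent histone genes tested 4 were higher and 2 lower, with the linker histone gene Hist1h1c going from 36.3, 31.2 and 33.1 CPM to 114 and 110.4 CPM. Among 24 elongation factors, Ell2, a subunit of the super elongation complex, fell by 1.45 ± 0.17 (without library scaling the fall did not pass the test) and 3 were called higher. The ephrin receptor gene Epha5, one of 19 genes of contacts between islet cells, fell by 3.21 ± 0.60.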
